A study of Mus musculus with 6 samples.

Results

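The genes described are the secretory products of the pancreatic acinar cell and the transcription factors that maintain that cell, as they were measured in mouse islet preparations over a day. They were given as a list of 32 genes, in which 28 encode digestive enzymes or proteins of the secretory granule and 4 encode regulators (Bhlha15, Ptf1a, Rbpjl and Nr5a2). Enzymes and regulators are reported apart. The list was made by function, with earlier results of these data known. Of the 32 genes, 28 had a probe matched to their symbol, all 28 of these passed the filter on dim probes, and they were among 24127 genes tested. These were 24 of the 28 enzyme and granule genes and 4 of the 4 regulators. Ctrc, Prss3, Try10 and Amy2b had no matched probe.

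Islets came from male C57BL6 mice, 8 weeks old, fed rodent chow with 12 h light and 12 h dark periods, and were isolated with collagenase at zeitgeber time (ZT) 0, 4, 8, 12, 16 and 20, where ZT0 is lights on and ZT12 is lights off. RNA from 3 to 5 mice was pooled at each time and hybridised to 1 Agilent 1-colour array, so there are 6 groups of 1 array each, no replicates, and no test between time points. The only test was of a 24 h cosine through the 6 arrays. The study's question was how islet transcripts vary over the day, and no genotype or treatment was compared.

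Acinar cells make up most of the pancreas, and islets are obtained by digesting the surrounding acinar tissue away. Acinar cells synthesise the enzymes as inactive zymogens or active hydrolases, store them in zymogen granules and release them into the duct after a meal. Transcription of these genes depends on the PTF1 complex, in which the basic helix-loop-helix factor Ptf1a joins an E protein (Tcf3 or Tcf12) and either Rbpj or its acinar paralogue Rbpjl. The complex binds an E-box (CACCTG) next to a TC-box (TTTCCC). Bhlha15, also called Mist1, sets up granule maturation and the secretory apparatus, and Nr5a2 is a nuclear receptor that binds AAGGTCA and acts with PTF1 at acinar genes.

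The promoters below are shown because the enzyme genes shared their lowest array, and because each carries at least the E-box letters that PTF1 is known to bind. Each is the 250 bases before the RefSeq transcription start (GRCm38.p6), written 5′ to 3′ on the gene's strand, with capitals marking, on either strand, the E-box letters CACCTG, the TC-box letters TTTCCC, the Nr5a2 site letters AAGGTCA and the TATA box letters TATAAA. The first 4 are enzyme genes that hold both the E-box and the TC-box letters, and all of these but Prss2 hold the Nr5a2 site letters. The last 2 are regulators and hold the E-box letters only.
Cela1 (chr15:100687921-100688170, minus strand): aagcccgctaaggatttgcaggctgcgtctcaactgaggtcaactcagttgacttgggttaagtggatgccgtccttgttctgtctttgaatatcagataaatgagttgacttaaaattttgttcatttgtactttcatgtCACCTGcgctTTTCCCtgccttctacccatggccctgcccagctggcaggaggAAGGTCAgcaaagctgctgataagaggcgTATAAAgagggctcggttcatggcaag
Cel (chr2:28563404-28563653, minus strand): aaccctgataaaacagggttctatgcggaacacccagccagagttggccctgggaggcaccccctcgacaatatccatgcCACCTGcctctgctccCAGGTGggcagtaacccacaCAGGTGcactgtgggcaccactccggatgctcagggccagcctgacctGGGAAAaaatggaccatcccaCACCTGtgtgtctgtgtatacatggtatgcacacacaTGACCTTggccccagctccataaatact
Prss1 (chr6:41458680-41458929, plus strand): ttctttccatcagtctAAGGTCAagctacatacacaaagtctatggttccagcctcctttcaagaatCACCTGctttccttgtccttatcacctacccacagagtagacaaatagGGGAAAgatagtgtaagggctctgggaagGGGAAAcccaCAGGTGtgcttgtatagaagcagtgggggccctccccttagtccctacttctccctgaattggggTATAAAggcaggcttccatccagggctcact
Prss2 (chr6:41521526-41521775, plus strand): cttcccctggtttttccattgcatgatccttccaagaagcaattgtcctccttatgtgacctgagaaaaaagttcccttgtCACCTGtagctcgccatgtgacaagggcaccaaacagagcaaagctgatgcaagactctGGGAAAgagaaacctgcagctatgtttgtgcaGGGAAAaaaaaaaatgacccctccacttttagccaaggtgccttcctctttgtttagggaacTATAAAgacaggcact
Rbpjl (chr2:164402944-164403193, plus strand): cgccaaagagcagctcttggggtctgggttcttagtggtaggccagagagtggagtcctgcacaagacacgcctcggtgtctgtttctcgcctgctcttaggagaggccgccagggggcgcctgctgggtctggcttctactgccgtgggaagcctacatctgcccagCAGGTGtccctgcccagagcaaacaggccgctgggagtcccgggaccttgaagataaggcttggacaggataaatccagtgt
Bhlha15 (chr5:144190036-144190285, plus strand): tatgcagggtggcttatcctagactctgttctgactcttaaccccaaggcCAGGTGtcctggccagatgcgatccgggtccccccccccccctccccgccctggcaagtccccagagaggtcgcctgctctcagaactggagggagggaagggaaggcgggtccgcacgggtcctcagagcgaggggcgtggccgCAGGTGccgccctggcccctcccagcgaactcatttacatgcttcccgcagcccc
In the Cela1 window, CACCTG lay 109 to 104 bases before the start, TTTCCC 99 to 94, AAGGTCA 56 to 50 and TATAAA 27 to 22, all on the gene's strand. The Cel window held 4 copies of CACCTG. Windows were read for 23 enzyme genes (24 windows) and 4 regulators (5 windows), and for 32851 windows in all. The 23 are not the same set as the 24 measured enzyme genes. They include Amy2b and Prss3, which had no probe and held CACCTG and TATAAA, while the measured Clps, Zg16 and Try5 had no window. No matches overlapped in the windows printed. CACCTG was present in 13 of 24 enzyme windows, 3 of 5 regulator windows and 17.2% of all windows. TTTCCC was present in 7 of 24 enzyme windows, 0 of 5 regulator windows and 21.9% of all windows. Both together were found in 5 enzyme windows (Cel, Cela1, Cela2a, Prss1 and Prss2), 0 regulator windows and 3.61% of all windows. They were counted anywhere in a window, with no rule on the distance between them. In the Prss2 window CACCTG lay 169 to 164 bases before the start and the nearest TTTCCC 110 to 105. AAGGTCA was found for Cel, Cela1, Klk1 and Prss1, in 4 of 24 enzyme windows against 4.08% of all windows. TATAAA was found in 9 of 24 enzyme windows, 1 of 5 regulator windows and 12.4% of all windows. These are matches of letters. Several of the enzyme genes are neighbouring copies, so their windows are not independent: Prss1 and Prss2 are adjacent on chromosome 6, and Pnlip, Pnliprp1 and Pnliprp2 are adjacent on chromosome 19.

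Levels are given as log2 of the processed spot signal relative to the 75th percentile of the same array's probes, so 0 is the 75th percentile and each unit is a doubling. The 75th percentile was 1976, 506, 2090, 1657, 1229 and 1380 signal units on the ZT0, ZT4, ZT8, ZT12, ZT16 and ZT20 arrays, and 66.1% to 84.4% of spots were well above background. No spot was flagged as saturated. The arrays from ZT8 to ZT20 were on 1 slide and read in 1 scan. The ZT4 array was scanned apart from them, and the ZT0 array, with 1743 spots flagged as outliers against 166 to 247 on the others, on a later date. For these 2 arrays scan and time of day cannot be told apart. The enzyme probes together gave 1.97%, 1.58%, 1.64%, 0.68%, 2.0% and 3.07% of the summed signal of each array from ZT0 to ZT20. The labelled tissue was checked with Iapp, Ins2 and Ins1, the islet hormone genes of highest signal, whose levels lay between 6.91 and 8.75 on the 6 arrays. These bright probes show that islet RNA was present and not that islet content was equal. The median deviation of the 17 endocrine genes from each gene's own mean ran from -2.54 at ZT12 to 1.21 at ZT16.

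The enzyme genes were low together on the ZT12 array and, for the dimmer probes, high on the ZT20 array. Of the 24 enzyme genes, 23 had their lowest level at ZT12, against 21.1% of all genes tested, and Pla2g1b was the exception with its lowest level at ZT0. At ZT12, 19 of 24 were at least 2-fold below the median of the other 5 arrays, against 20.3% of all genes. The highest level was at ZT20 for 12 genes (15.2% of all genes), at ZT0 for 8 (21.5%) and at ZT4 for 4 (23.4%). At ZT0, 8 of 24 (16.8% of all genes), and at ZT4, 8 of 24 (21.8%), were at least 2-fold above the median of the other 5 arrays, none of them with quantile normalization. At ZT20, 11 of 24 were at least 2-fold above the median of the other 5 arrays, against 12.8% of all genes. The median deviation of the enzymes from each gene's own mean was 0.50, 0.59, -0.43, -1.57, 0.01 and 0.85 from ZT0 to ZT20, against 0.00, -0.03, 0.01, 0.03, 0.01 and 0.06 for all genes. With quantile normalization between arrays the enzyme medians were -0.09, -0.32, 0.27, -1.78, 0.46 and 1.21, so the sign at ZT0, ZT4 and ZT8 depended on the scaling while ZT12 was lowest and ZT20 highest under both. With arrays scaled to their median instead, the enzyme median was still lowest at ZT12 (-1.31) but was highest at ZT4 (0.83) and not at ZT20 (0.67). With quantile normalization 23 of 24 enzymes were lowest at ZT12 (18.9% of all genes) and 17 of 24 highest at ZT20 (13.3%), not counting Cpa1, whose ZT16 and ZT20 values were equal. In bulk RNA, fewer acinar cells and less RNA per acinar cell cannot be told apart.

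**Figure D1:**
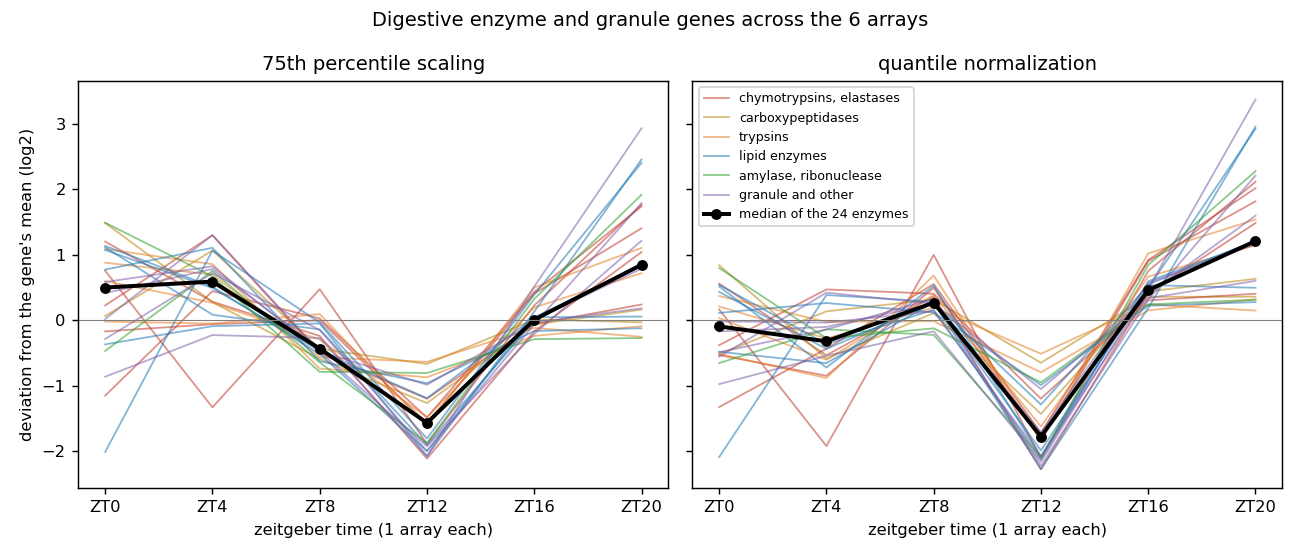
Deviation of each of 24 enzyme and granule genes from its own mean over 6 arrays (log2, y axis) at each zeitgeber time (x axis, 1 array each), scaled to the array's 75th percentile on the left and quantile-normalized on the right. Thin lines are genes coloured by role and the black line is their median, which is lowest at ZT12 (-1.57 and -1.78) and highest at ZT20 (0.85 and 1.21), while the signs at ZT0, ZT4 and ZT8 differ between the panels.

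Within the 4 arrays of the shared scan, where slide and scan do not differ, 24 of 24 enzymes were lowest at ZT12 (38.9% of all genes) and 22 of 24 were highest at ZT20 (23.1%). ZT12 was at least 2-fold below ZT8 for 15 of 24 enzymes, against 19.2% of all genes. ZT20 was at least 2-fold above ZT16 for 9 of 24, against 6.62% of all genes. Counted without a size limit, ZT12 was below ZT8 for 24 of 24 enzymes (47.6% of all genes) and ZT20 above ZT16 for 22 of 24 (47.1%). The median difference of the enzymes was -1.34 for ZT12 minus ZT8 and 0.78 for ZT20 minus ZT16, against 0.05 and -0.03 for all genes.

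The elastases and chymotrypsins are serine proteases secreted as zymogens, which cut proteins next to small or aromatic residues. Cela1, an elastase, was at 5.89, 3.81, 5.61, 3.25, 5.36 and 6.90 from ZT0 to ZT20. Cela2a was at 5.04, 5.15, 5.21, 3.64, 5.62 and 6.62. Cela3b was at 6.99, 6.07, 5.55, 3.67, 5.62 and 6.83. All 3 elastases were lowest at ZT12, and ZT20 stood above ZT12 by 12.6-fold for Cela1, 7.90-fold for Cela2a and 8.92-fold for Cela3b. Ctrb1, chymotrypsinogen B, was at 7.82, 8.89, 7.09, 6.39, 7.53 and 7.83, and its probe gave the highest signal of any probe on the ZT4 array (239754 units). Ctrl, a chymotrypsin-like protease, was at 4.48, 6.07, 5.66, 4.14, 6.06 and 7.37. The ZT20 over ZT12 ratio was 2.71 for Ctrb1 and 9.36 for Ctrl.

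The trypsins activate the other zymogens in the gut lumen. The mouse trypsinogen genes are near-identical copies, and the probe sequences were not used here, so a probe may read several of them. Prss1 was at 5.64, 5.61, 5.76, 4.04, 6.17 and 6.77 from ZT0 to ZT20. Prss2 was at 7.29, 6.96, 6.40, 5.21, 6.89 and 7.41. Both were lowest at ZT12 and highest at ZT20, by 6.64-fold for Prss1 and 4.60-fold for Prss2. Try4 was at 8.21, 8.03, 6.76, 6.69, 7.21 and 7.08. Try5 was at 8.57, 8.34, 6.75, 6.61, 7.25 and 7.39. These 2 genes were also lowest at ZT12, but their highest level was at ZT0 and their ZT20 over ZT12 ratios were 1.30 and 1.72. With quantile normalization Try4 was highest at ZT16 and Try5 at ZT0.

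The carboxypeptidases remove residues from the carboxyl end of peptides, Cpa1 preferring hydrophobic and Cpb1 basic ones. Cpa1 was at 7.27, 8.27, 6.77, 6.54, 7.22 and 7.17 from ZT0 to ZT20. Cpb1 was at 8.27, 7.07, 6.19, 5.52, 6.72 and 6.95. Both were lowest at ZT12, with ZT20 over ZT12 ratios of 1.55 and 2.69. Cpa1 was highest at ZT4 with the 75th percentile and equally high at ZT16 and ZT20 with quantile normalization.

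The lipid enzymes differed widely among themselves, with ZT20 over ZT12 ratios of 1.79 to 23.1. Pnlip, the triglyceride lipase, was at 8.08, 7.5, 6.54, 5.82, 7.06 and 7.07 from ZT0 to ZT20. Clps, the colipase that anchors Pnlip to fat droplets, was at 8.10, 8.43, 6.70, 6.36, 7.16 and 7.21. For both, ZT12 was lowest and ZT20 was 2.37-fold and 1.79-fold above it. Cel, the bile-salt-dependent carboxyl ester lipase, was at 7.65, 7.02, 5.99, 4.52, 6.56 and 7.34. The lipase-related Pnliprp1 was at 7.36, 6.33, 6.11, 4.34, 6.23 and 7.12. These 2 genes stood 7.08-fold and 6.84-fold higher at ZT20 than at ZT12. Pnliprp2, a lipase that also takes galactolipids, was at 2.99, 3.27, 3.31, 1.29, 3.49 and 5.82. The secreted phospholipase Pla2g1b was at 1.15, 4.23, 3.13, 1.36, 3.56 and 5.57. The ZT20 array was the highest for both, 23.1-fold above ZT12 for Pnliprp2 and 18.5-fold for Pla2g1b, whose ZT0 level was lower still and 21.4-fold below ZT20.

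Amylase splits starch and pancreatic ribonuclease splits RNA. Amy1 was at 8.16, 7.34, 5.88, 5.87, 6.38 and 6.40 from ZT0 to ZT20, highest at ZT0 and about equal at ZT8 and ZT12. The mouse amylase genes are near-identical, so the Amy1 probe may also read pancreatic amylase copies. Rnase1 was at 4.42, 5.64, 4.24, 3.01, 5.21 and 6.80, and its ZT20 level was 13.9-fold above ZT12.

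Among the granule genes, Sycn (syncollin, on the inner face of the granule membrane) was at 7.22, 8.50, 6.73, 6.22, 7.17 and 7.38. Zg16, a lectin of zymogen granules, was at 6.73, 7.10, 5.88, 4.75, 6.32 and 7.10. Gp2, the main glycoprotein of the granule membrane, was at 6.41, 6.65, 5.35, 3.90, 5.62 and 7.04. All 3 were lowest at ZT12, and ZT20 stood above it 2.25-fold, 5.09-fold and 8.83-fold. Klk1, tissue kallikrein, was at 4.47, 5.48, 4.60, 2.75, 4.69 and 6.55. Cuzd1, a granule membrane protein with CUB and zona pellucida domains, was at 0.87, 1.51, 1.46, -0.35, 2.25 and 4.67. Klk1 was 13.9-fold and Cuzd1 32.3-fold higher at ZT20 than at ZT12, the last being the largest ratio among the 24 enzyme and granule genes.

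The size of the variation went with the signal of the probe, which on an array depends on the probe as well as on the transcript. Highest over lowest array was at least 4-fold for 21 of 24 enzymes, against 53.3% of all genes. Across the 24 enzyme genes, the Spearman correlation of mean level with range (highest minus lowest array, log2) was -0.90 with the 75th percentile and -0.96 with quantile normalization. Across the 18957 genes well above background on all 6 arrays it was -0.02 with the 75th percentile. Those genes were not matched to the enzymes in level, so the relation is not shown to be particular to the enzymes. The bright endocrine genes Iapp, Ins2 and Ins1 had ranges of 1.65, 1.80 and 1.30, against a median of 4.39 for the 17 endocrine genes. Of 18 acinar genes outside the list, the bright Cela3a and Dmbt1 had 2.31 and 3.14, against a median of 3.42. The mean levels of the enzymes ran from 1.73 to 7.59, all above the 75th percentile. Genes of an array share its scaling and are not independent, so these values are descriptions. The 12 dimmer enzymes had a median range of 3.48 and a median ZT20 minus ZT16 difference of 1.48 (0.60 to 2.42), and 10 of them were highest at ZT20. The 12 brighter enzymes had a median range of 2.28 and a median ZT20 minus ZT16 difference of 0.18 (-0.14 to 0.78), with the highest array at ZT0 for 6, at ZT4 for 4 and at ZT20 for 2. With quantile normalization the highest array of the 12 brighter enzymes was ZT0 for 3, ZT4 for 1, ZT16 for 3 (with Cpa1 equal at ZT20) and ZT20 for 5, and that of the 12 dimmer ones was ZT20 for 12.

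**Figure D2:**
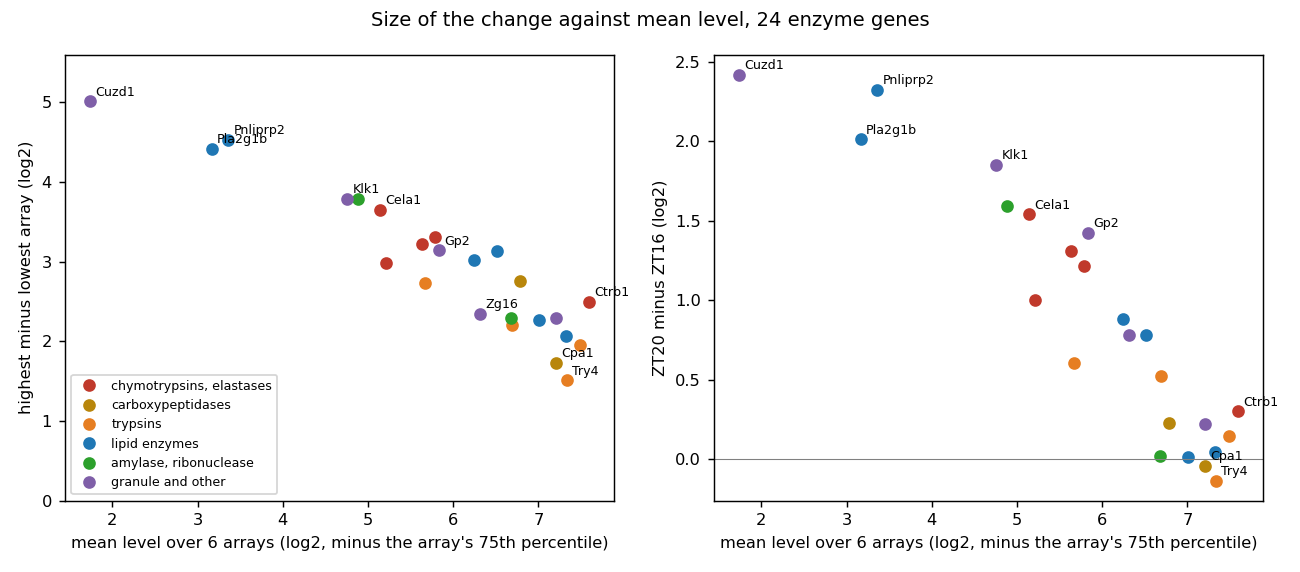
Range over the 6 arrays (left) and ZT20 minus ZT16 difference (right), both in log2, against mean level (log2 minus the array's 75th percentile) for 24 enzyme genes coloured by role. Each point is a gene, and dim genes such as Cuzd1 and Pnliprp2 lie high in both panels while bright genes such as Cpa1 and Try4 lie low, near 0 on the right.

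The 3 enzyme genes with 2 probes showed the same relation within a gene. For Prss1 the dimmer probe was at 2.39, 3.88, 4.35, 2.01, 4.91 and 6.27 from ZT0 to ZT20, a range of 4.26 against 2.73 on the brighter probe. For Clps the dimmer probe was at 3.84, 5.39, 4.80, 3.36, 4.84 and 6.48, a range of 3.11 against 2.07. For Gp2 the dimmer probe was at 1.67, 2.19, 3.39, 0.96, 3.50 and 5.73, a range of 4.77 against 3.14. Each dimmer probe was lowest at ZT12 and highest at ZT20, whereas the brighter Clps probe was highest at ZT4 with the 75th percentile and at ZT20 with quantile normalization. The ZT20 minus ZT16 difference was 0.04 on the brighter Clps probe and 1.63 on the dimmer one. The 2 probes may read different transcripts, and their sequences were not used here. The highest signal of any probe was 759347, 239754, 314134, 305255, 237818 and 345950 units from ZT0 to ZT20, and on the ZT0 array the Try5 probe was at 751705 units. The part of high signal in the small range of bright probes was not tested.

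**Figure D3:**
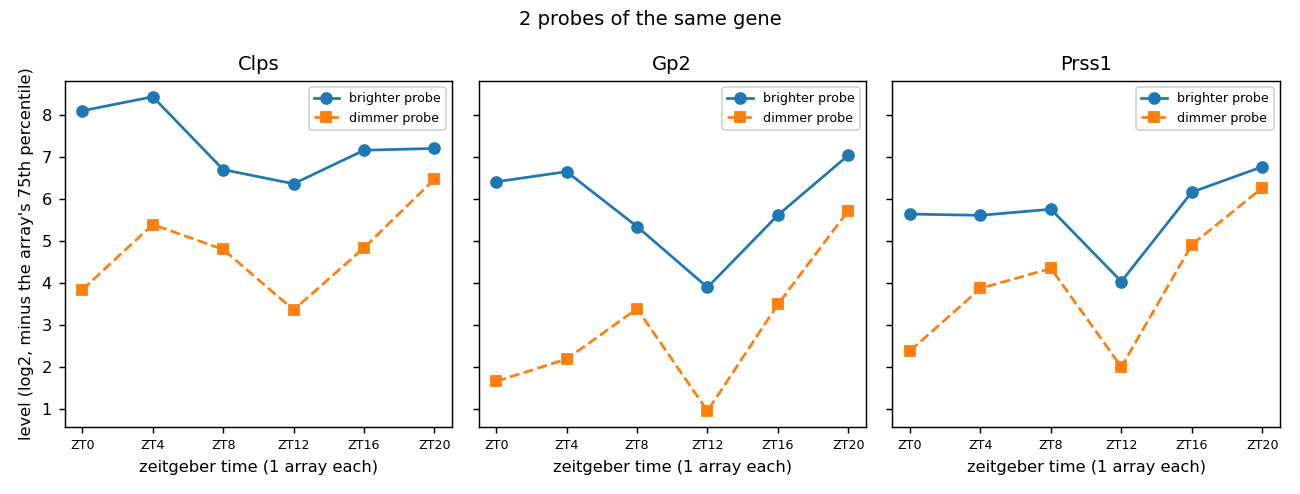
Level (log2 minus the array's 75th percentile) of both probes of Clps, Gp2 and Prss1 at each zeitgeber time, 1 array each, with the brighter probe as solid circles and the dimmer probe as dashed squares. The dimmer probe has the larger range in each gene (3.11 against 2.07 for Clps, 4.77 against 3.14 for Gp2, 4.26 against 2.73 for Prss1) and is highest at ZT20.

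The enzymes also differed in how closely each followed the others. The Pearson correlation of each gene with the median of the other enzymes over the 6 arrays had a median of 0.78 and was highest for Gp2 and Zg16 (both 0.99), Prss2 (0.97) and Cel (0.96). It was lowest for Pla2g1b (0.56), Amy1 (0.59) and Cela1 (0.60). With quantile normalization the lowest was 0.71, for Amy1, and the median was 0.89. These are descriptions over 6 arrays that share their scaling.

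The 24 h cosine was called for 0 of 24 enzymes and for 0 of 24127 genes (0% of genes, limma's moderated F test with Benjamini-Hochberg adjustment over all genes, smallest adjusted p 0.754). At an unadjusted p under 0.05 there were 965 genes (4% of all genes), with 3 of 24 enzymes among them. These were Cel, with a fitted amplitude (peak minus trough, log2) of 2.74 ± 0.77 (SE) and a fitted peak at ZT23.3, Cela3b with 2.83 ± 0.81 and a peak at ZT23.4, and Gp2 with 2.61 ± 0.83 and a peak at ZT23.4. After adjustment over all genes, limma's p was 0.754 for each of them. Fitted amplitudes of the 24 enzymes ran from 1.04 to 2.83 with a median of 1.95, and all 24 fitted peaks fell between ZT20.4 and ZT1.40. On simulated data the fit called 16% of genes given an amplitude of 4. The count of 0 therefore does not show that these genes lack a rhythm. With quantile normalization 1111 genes (4.6%) and 0 of 24 enzymes had an unadjusted p under 0.05. Fitted amplitudes then ran from 0.16 to 3.10, and 18 of 24 fitted peaks fell between ZT20 and ZT2, the earliest peak being at ZT18.7.

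Of the regulators, 3 of 4 were lowest on the ZT12 array and highest on the ZT20 array. Ptf1a, the acinar-specific DNA-binding subunit of PTF1, was at -2.79, -2.81, -2.57, -5.44, -2.06 and 0.79 from ZT0 to ZT20. ZT20 stood 75.2-fold above ZT12 (68.6-fold between quantile-normalized values). The ZT12 reading was not well above background, so the size of this ratio is uncertain. ZT20 was 7.21-fold above ZT16. Rbpjl, the acinar PTF1 subunit, was at -0.93, 2.27, -0.15, -1.73, 0.65 and 2.45. Its ZT4 and ZT20 levels were close to each other, and ZT20 was 18.2-fold above ZT12 and 3.49-fold above ZT16. Bhlha15 was at 2.40, 1.52, 2.09, 0.55, 3.50 and 3.67, high on both ZT16 and ZT20, with ZT20 8.67-fold above ZT12 and 1.12-fold above ZT16.

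Nr5a2 did not share this order of arrays. It was at -4.83, -3.74, -3.25, -4.52, -5.41 and -4.03 from ZT0 to ZT20, with the ZT16 value not well above background, and was highest at ZT8, at least 3.79-fold above ZT16. Its other probe, well above background on 4 arrays, was at -5.0, -4.47, -5.58, -5.65, -5.95 and -4.69, highest at ZT4, so the probes disagree on the highest array. The Nr5a2 signals before scaling were 29 units at ZT16 and 219 units at ZT8, where the lowest signals detected on those arrays were 34.0 and 34.2 units.

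**Figure D4:**
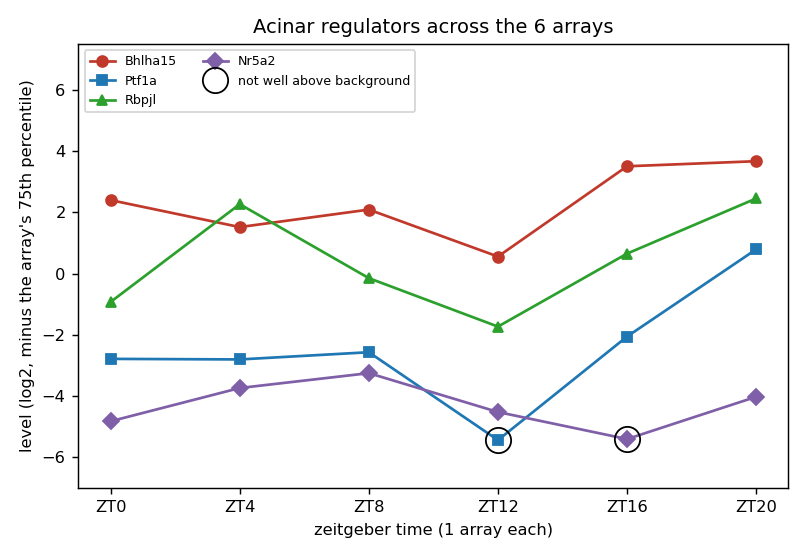
Level of the 4 acinar regulators (log2 minus the array's 75th percentile) at each zeitgeber time, 1 array each. Circles mark values not well above background (Ptf1a at ZT12 and Nr5a2 at ZT16), and Ptf1a, Rbpjl and Bhlha15 are lowest at ZT12 and highest at ZT20 while Nr5a2 is highest at ZT8.

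As a group, 3 of 4 regulators were lowest at ZT12 (21.1% of all genes) and the same 3 were highest at ZT20 (15.2%). Their median deviation was -0.42, 0.11, -0.15, -1.95, 0.32 and 1.70 from ZT0 to ZT20, and -0.58, 0.33, -0.14, -1.93, 0.35 and 1.91 with quantile normalization, with the same signs. Other settings changed the smaller medians in sign. Without Nr5a2 the ZT4 median was -0.33. Without the ZT12 array it was -0.20 at ZT4 and -0.19 at ZT16, and without the ZT20 array it was 0.32 at ZT8. The Pearson correlation with the median of the enzymes over the 6 arrays was 0.80 for Ptf1a, 0.76 for Rbpjl, 0.68 for Bhlha15 and 0.05 for Nr5a2. Under quantile normalization it was 0.93, 0.71, 0.93 and -0.11. The cosine was called for 0 of 4 regulators, and 0 of 4 had an unadjusted p under 0.05. The fitted amplitude was 3.55 ± 1.55 for Ptf1a, the largest of the 28 genes (limma's adjusted p 0.754). It was 2.33 ± 1.0 for Bhlha15, 2.03 ± 1.60 for Rbpjl and 1.41 ± 0.85 for Nr5a2.

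Other acinar genes outside the list gave a similar order of arrays, except at ZT0. Of 18 such genes tested out of 20 listed, 15 were lowest at ZT12 (21.1% of all genes), 2 at ZT4 and 1 at ZT8. At ZT20, 9 were highest (15.2% of all genes). Their median deviation was -0.32, 0.58, -0.41, -1.90, -0.05 and 1.56 from ZT0 to ZT20, where that of the enzymes at ZT0 was 0.50. Cela3a, another elastase, was at 7.37, 8.22, 6.56, 5.90, 6.99 and 7.08. Dmbt1, a secreted scavenger receptor protein, was at 7.26, 7.24, 5.52, 4.13, 6.2 and 7.24. Like Cpa1, Cela3a was highest at ZT4 and lowest at ZT12, and Dmbt1 was lowest at ZT12 with almost equal levels at ZT0, ZT4 and ZT20. Aqp8, a water channel, was chosen after its values were seen, and its level was 3.20 at ZT4 and 1.69 at ZT20 against -3.07 to -1.80 on the other arrays.

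The broadly expressed partners of Ptf1a and other acinar transcription factors (8 genes) did not share the low ZT12 array. Of the 8, 3 were lowest (21.1% of all genes) and 2 highest (16.6%) at ZT12. Their median deviation was 0.53, -0.23, 0.10, -0.17, -0.36 and -0.02. Rbpj, the broadly expressed PTF1 subunit (named after its values were seen), was at 0.19, 2.01, 0.56, 2.03, 0.58 and 0.58, highest at ZT12, where Rbpjl was lowest, and at ZT4, where Rbpjl was also high. Xbp1, which sets the secretory capacity of the endoplasmic reticulum, was at 5.95, 5.40, 4.80, 4.68, 5.53 and 5.32. Tcf12, an E protein gene, was at 1.85, -0.02, 1.21, 1.86, 0.71 and 1.02. Tcf3, the other E protein gene, was at 0.97, 1.37, 1.79, 1.75, 0.25 and 0.19. Neither was lowest at ZT12.

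Markers of other cells moved over the same arrays. Endocrine genes were low at ZT12 as well: 15 of 17 were lowest there (21.1% of all genes), with median deviations of 1.05, -1.54, 0.26, -2.54, 1.21 and 1.20 from ZT0 to ZT20. Duct genes were lowest at ZT12 for 6 of 10 (21.1% of all genes), with a median of -1.89 there. Lymphocyte genes were high at ZT12, with 12 of 12 above their own mean, and had median deviations of 0.27, 2.53, 0.73, 2.34, -3.17 and -2.83. The summed signal of the 12 lymphocyte genes, in multiples of the array's 75th percentile, was 78.3, 394, 97.8, 286, 30.2 and 16.3 from ZT0 to ZT20. That of the 24 enzymes was 3407, 3486, 1515, 907, 2028 and 3012. The 2 sums did not mirror each other over the 6 arrays, as both were highest at ZT4. The part of these cells in the low enzyme levels at ZT12 was not tested.

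On the ZT20 array, where 12 enzymes were highest, hepatocyte genes were high. All 11 tested were at least 1 log2 unit above their own mean, with a median deviation of 5.26 and a summed signal of 395 against 4.50 to 77.2 on the other arrays. Alb was at 6.40 at ZT20 and at -5.34 to -3.14 elsewhere (chosen after its values were seen). On the ZT4 array, where 4 enzymes were highest, intestinal epithelium genes had a median deviation of 5.49. Their summed signal there was 424 against 2.80 to 52.1 on the other arrays, and 8 of 12 genes were at least 1 log2 unit above their own mean. Of the 3 of highest signal, Lgals4 was at 6.90 and Spink4 at 6.80 at ZT4, while Vil1 was highest at ZT16 (3.24 at ZT4 and 3.83 at ZT16). Fabp1, chosen after its values were seen, was at -0.34 at ZT4 and highest at ZT20 (5.25), and Sis and Apoa4 were lowest at ZT4. Salivary genes other than Amy1 were dim, all 4 at -7.15 to -0.60. The part of these tissues in the enzyme levels was not tested. Some of these markers were high on both arrays: 3 of 11 hepatocyte genes were at least 1 log2 unit above their own mean at ZT4, where the list median was -1.0, and 3 of 12 intestinal genes were so at ZT20, where the list median was 0.18.

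**Figure D5:**
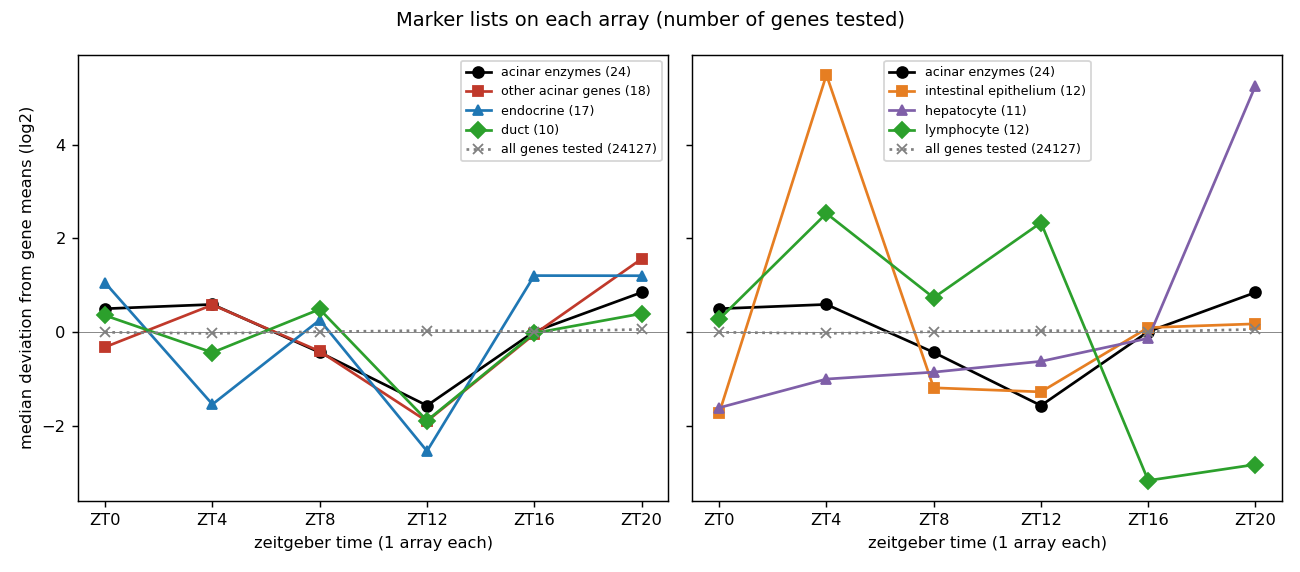
Median deviation from gene means (log2) of marker lists at each zeitgeber time, 1 array each, with pancreatic lists on the left and other tissues on the right, and the number of genes tested in the legend. Acinar enzymes, other acinar genes, endocrine and duct genes are lowest at ZT12 (-1.57, -1.90, -2.54 and -1.89), lymphocyte genes are high there (2.34), intestinal genes stand out at ZT4 (5.49) and hepatocyte genes at ZT20 (5.26).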

How the data were processed

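The deposited scanner files were made with Agilent Feature Extraction 11.0.1.1, per the submitters' processing notes and the file headers, and hold a linear intensity (the processed signal, background-subtracted and not normalized between arrays) and other columns with spot flags. The authors' deposited value table was on a log2 scale and differed by up to 0.0080 from quantile-normalized log2 processed signal for the 28 genes with a probe. The authors' steps were not given in the sources used here. Spots of a probe were averaged (39429 probes). Probes took symbols by accession from RefSeq names of GRCm38.p6 (27234 matched, 69.1%). The file headers name another build, so coordinates were printed for RefSeq promoters only. A probe was kept if well above background on at least 3 of 6 arrays and not an outlier on all its spots on any array, and the probe of highest mean stood for each gene. limma 3.58.1 in R 4.3.3 fitted a 24 h cosine (3 residual degrees of freedom). The fit was tested on simulated data, where 16% of genes given an amplitude of 4 log2 units were called and 97% at 8. Calls were made at an adjusted p under 0.05, and 2 were false. Fitted amplitudes of the members were at most 3.55, so their 0 calls do not show that they lack a rhythm. Members and lists were chosen with earlier results of these data known. All members with a probe were named, with up to 3 genes of highest signal from each other list, of which 1 is not reported here. Amy1 is also on the salivary list. Pooling and 1 array per time limit the precision. Alternatives tried were other normalizations, background correction, filters, probes, tests, scan as a covariate and leaving out each array.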

Additional observations from a re-analysis of the deposited data

How the results depend on the processing

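No paired analysis was possible because each time point had 1 array. The cosine was called for 0 enzymes, 0 regulators and 0 genes in all 48 combinations of count and alternative, with smallest adjusted p-values over all genes of 0.151 to 1.0 (limma, or 0.802 for the exact permutation test, where the design allows no p below 0.0167). The 965 genes at an unadjusted p under 0.05 became 4026 without the ZT8 array, 2452 without ZT12, 417 without ZT16, 347 without ZT20, 440 with scan as a covariate and 605 in the permutation test. The 3 enzymes among them became 0 to 5. The enzyme median at ZT4, 0.59 as reported, was -0.32 with quantile normalization and -0.32 with the authors' values, and the cause was not tested. The count of enzymes highest at ZT20, 12 as reported, was 22 among the 4 arrays of the shared scan, since the ZT0 and ZT4 arrays are then absent. Of all 174 list medians under alternatives, 172 moved by less than 0.74, the median residual SD of the fit. That is the spread of single genes and is a wide limit for a list median. The 172 include enzyme medians that changed sign with quantile normalization, from 0.50 to -0.09 at ZT0 and from -0.43 to 0.27 at ZT8. Enzymes lowest at ZT12 numbered 17 when arrays were scaled to their median and 23 to 24 without any 1 array. Enzymes highest at ZT20 numbered 10 and 12 to 15. Shares of all genes are not given for these settings, so an excess over all genes cannot be read from these counts. Counts of genes standing 2-fold or more apart from the other 5 arrays moved by over 1.5 times in 46 of 288 combinations. With quantile normalization or the authors' values, 0 enzymes were above at ZT0 and 0 at ZT4 (8 and 8 as reported), 4 were below at ZT0 and 5 at ZT4 (2 and 1 with the 75th percentile), 2 were above and 0 below at ZT8, and 5 were above at ZT16. The shares of all genes with quantile normalization were 13.5% above at ZT0, 17.7% above at ZT4, 22.3% below at ZT0, 18.5% below at ZT4, 7.76% above and 2.94% below at ZT8, and 12.1% above at ZT16. With normexp 4 enzymes were above at ZT4 and 1 below at ZT8. With 1 array left out, 5 to 11 were above at ZT4, 2 to 4 below at ZT0, 0 to 5 below at ZT8, and 0 to 2 above at ZT16. For regulators these counts stayed between 0 and 2 at ZT4, ZT8 and ZT16 in each such alternative. Shares of all genes are not given for normexp or with 1 array left out, so those counts are not set against all genes. Nr5a2 and Ptf1a each had 1 array not well above background. The ratio to that array is a bound for Nr5a2 and is uncertain in size for Ptf1a.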
